A study of Mus musculus with 2 samples.

Results

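This section describes 9 genes of glutamine and glutamate metabolism in senescent AML12 cells: the enzyme genes Gls2, Glul, Glud1 and Got1 and the transporter genes Slc1a5, Slc38a2, Slc7a5, Slc7a11 and Slc3a2. They were chosen by name, by matching Ensembl gene identifiers to mouse symbols, and they are 9 of 35275 genes in the count table. Earlier results of these data were known when these genes and the gene lists below were chosen. AML12 is a hepatocyte line established from the liver of a CD-1 mouse that carried a transforming growth factor alpha transgene, and the labels give a male of 3 months for both samples. Control AML12 cells were untreated. Senescent AML12 cells received a 1 h pulse of hydrogen peroxide daily for 6 days, the first at 1 mM and the others at 750 μM, with 23 h in complete medium between pulses. The complete medium contained 100 nM dexamethasone, a glucocorticoid. RNA of 3 samples was pooled for each of the 2 conditions and sequenced as 1 poly(A)-selected library, so the comparison is between 2 libraries and has no replicate check.

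Glutamine is the most abundant free amino acid of blood, and the liver both takes it up and makes it. Glutaminase splits glutamine into glutamate and ammonia in mitochondria, glutamate dehydrogenase and the aminotransferases pass the carbon of glutamate to the tricarboxylic acid cycle, and glutamine synthetase runs the opposite way. In liver tissue, periportal hepatocytes express glutaminase 2 and perivenous hepatocytes express glutamine synthetase. Glutamate is also exchanged for cystine at the plasma membrane, and together with cysteine it feeds the synthesis of glutathione.

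The control library held 28021941 reads and the senescent library 25738075. Counts were scaled between libraries by the TMM method, and each difference is given as a log2 ratio of senescent over control with a 95% interval that covers counting error only. All 12 hepatocyte markers listed had more than 3 reads in both libraries, though some had few, such as Serpina1c with 4 and 14. Their sum was 7787 CPM (reads scaled to library size) in control and 9192 in senescent cells. Krt8 was the largest part, at 4106 and 5838 CPM, so the higher sum does not describe each marker. Among these markers Hnf4a, a hepatocyte transcription factor, had 8187 control and 7705 senescent reads (log2 ratio 0.14), and albumin, Alb, had 32076 and 2917 (log2 ratio -3.23). Beyond a log2 ratio of 0.5, Apoa1 (-3.13) and Ttr (-0.91) were also lower, while Serpina1c (1.78), Krt18 (0.82) and Krt8 (0.51) were higher. Of the 7 macrophage markers, Adgre1 and Clec4f had no reads and the sum over the list was 194 CPM in control and 82.1 in senescent cells, nearly all of it Cd14. The other detected macrophage markers did not follow Cd14: Ptprc had 27 and 76 reads (log2 ratio 1.68), Csf1r 15 and 40 (1.58) and Cd68 34 and 40 (0.45, interval -0.23 to 1.17). The summed level of 7 fibroblast or stellate cell markers was 0.928 and 0.363 CPM, that of 5 endothelial markers 0.172 and 0.524 CPM, and that of 4 cholangiocyte markers 1023 and 994 CPM, most of it Krt19. Krt19 had a log2 ratio of -0.03, while Krt7 was lower (3248 and 1026 reads, -1.43) and Sox9 higher (3602 and 4454 reads, 0.54). The part of these markers in the results below was not tested, and in bulk RNA fewer cells of a type and less RNA per cell cannot be told apart.

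Across the 9 genes the changes went in both directions. Slc7a11, Slc7a5 and Slc3a2, the light chains and the heavy chain of amino acid exchangers, were higher in senescent AML12 cells, whereas Glul, Gls2 and Slc1a5 were lower. Calls were made among genes with 10 or more reads summed over the libraries, a minimum that all 9 genes passed. Such a gene counted as higher or lower if it lay beyond a threshold and 0 was outside its interval. Without a threshold, 0 was outside the interval of all 9 genes, 5 of them higher and 4 lower, beside 34% higher and 34.6% lower of all genes. At a log2 threshold of 1.5, the study's own, 1 of 9 genes was higher (Slc7a11) and 1 was lower (Gls2), beside 2.71% and 5.6% of the 14383 genes that had at least 10 reads. The study paired this threshold with a significance cutoff, which was not applied here. At a threshold of 0.5, 3 genes were higher and 3 lower, beside 14.8% higher and 20.4% lower of all genes. Total-count scaling changed the split of all genes from 2135 higher and 2933 lower to 1567 and 3525. The remaining 3 genes, Glud1, Got1 and Slc38a2, lay inside 0.5. The median log2 ratio of the 9 genes was 0.34 and that of all 14383 genes was -0.02. Summed over the 9 genes, the share of reads was 0.224% in control and 0.231% in senescent cells.

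**Figure D1:**
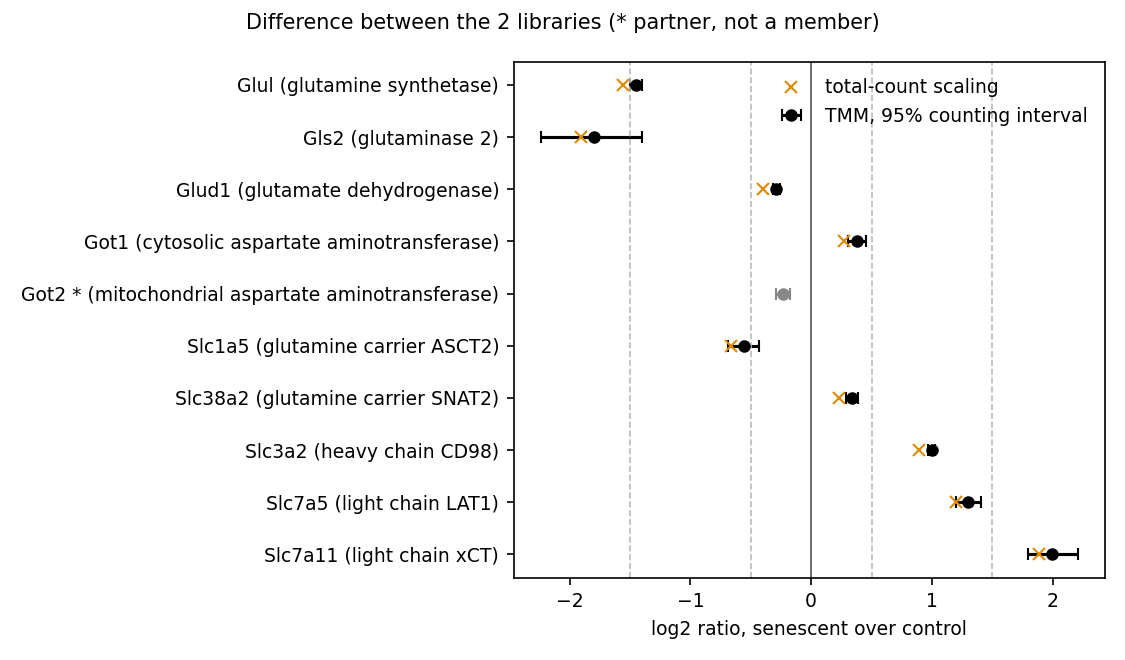
Log2 ratio of senescent over control for the 9 genes and for Got2 (marked with an asterisk), with TMM scaling and its 95% counting interval as bars and total-count scaling of the 9 genes as crosses. Dashed lines mark 0.5 and 1.5 in each direction, and Slc7a11 at 1.997 and Gls2 at -1.80 are the genes beyond 1.5 with TMM scaling, while Glul also passes it with total-count scaling (-1.56).

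To see what the promoters of these genes hold, RefSeq promoter windows on GRCm38.p6, from 250 bases before to 50 after the start site, were searched on both strands for 2 motifs. TGATGNAA is the C/EBP-ATF response element (CARE), a site that ATF4 binds with a C/EBP partner, and TGACNNNGC is the core of the antioxidant response element (ARE), which NRF2 binds. The table held 6 of the 9 genes, without Gls2, Slc1a5 and Slc7a5. The sequences below are the 150 bases before the start site of the gene with the largest increase, of the other genes with a match, and of Glul as the most decreased of the 6, each written 5′ to 3′ on the strand of the gene with matches in capitals.
Slc7a11 (chr3:50443614-50443763, minus strand): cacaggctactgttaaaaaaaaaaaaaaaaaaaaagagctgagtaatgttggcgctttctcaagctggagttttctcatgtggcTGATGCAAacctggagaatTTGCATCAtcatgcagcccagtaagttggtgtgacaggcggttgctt
Got1 (chr19:43524606-43524755, minus strand): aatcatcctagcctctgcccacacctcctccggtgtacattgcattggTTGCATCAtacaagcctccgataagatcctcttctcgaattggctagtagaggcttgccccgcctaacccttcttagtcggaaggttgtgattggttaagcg
Slc38a2 (chr15:96699729-96699878, minus strand): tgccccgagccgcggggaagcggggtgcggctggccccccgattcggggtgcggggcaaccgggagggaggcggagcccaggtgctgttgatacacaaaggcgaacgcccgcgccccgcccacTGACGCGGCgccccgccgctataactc
Glul (chr1:153899779-153899928, plus strand): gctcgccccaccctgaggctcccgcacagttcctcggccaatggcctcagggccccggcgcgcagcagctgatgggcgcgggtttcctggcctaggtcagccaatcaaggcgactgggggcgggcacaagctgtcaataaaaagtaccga
Slc7a11 held 2 CARE matches, at -66 to -59 and, on the opposite strand, at -47 to -40 from the start site. Got1 held 1 CARE match on the opposite strand, at -102 to -95, and Slc38a2 held 1 ARE match at -27 to -19. The windows of Glul, Glud1 and Slc3a2 held neither motif, and none of the 6 windows held both motifs. Of all 32851 windows, 3.97% held a CARE and 12.4% an ARE. The shares that follow are of genes, with a match in any window of the gene, so they are not on the same unit. The share of genes with a raised ratio was similar with and without a CARE. Of 293 genes with a CARE in a window and at least 10 reads, 16.0% had a log2 ratio above 0.5, and of 10101 genes without a CARE, 16.7% did. Below -0.5 the shares were 27.6% and 23.3%. The lists of ATF4 and its other targets and of NRF2 and its other targets are described further on. Of genes with a window in the ATF4 list, 8 of 25 held a CARE and 9 of 25 an ARE. In the NRF2 list, 0 of 15 held a CARE and 9 of 15 an ARE. Of all genes with a window and at least 10 reads, 293 held a CARE and 10101 did not. For an ARE these counts were 1753 and 8641. Of 1753 genes with an ARE, 18.0% had a log2 ratio above 0.5, and of 8641 without an ARE, 16.5% did. A match is a description of the letters and not evidence of binding.

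The largest increase was that of Slc7a11, which encodes xCT, the light chain of the cystine and glutamate exchanger. Slc7a11 (ENSMUSG00000027737) lies on the minus strand of chromosome 3, from 49892526 to 50443614, in GENCODE M21 on GRCm38, as do all positions of genes given here. Its 256 control reads stood against 874 in senescent cells. These are 8.80 and 35.2 CPM, which give a log2 ratio of 1.997 (1.80 to 2.21). It was the 220th highest ratio of 14383 genes, and lay at percentile 99.4 of the 3841 genes with a mean level within 2-fold of its own. The annotated principal transcript of Slc7a11 shares up to 585 bases at 92.5% identity with the alpha-tubulin gene Tuba1b, so the split of reads there is uncertain. Tuba1b had 13771 control and 10582 senescent reads, Tuba1c had 4467 and 4498, and Tuba1a had 5159 and 1378.

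Slc7a5 encodes LAT1, the light chain that exchanges intracellular glutamine for leucine and other large neutral amino acids. Slc7a5 (ENSMUSG00000040010, chromosome 8 from 121881150 to 121907694) had 1182 control and 2487 senescent reads, or 40.6 and 100.3 CPM. Its log2 ratio of 1.30 (1.20 to 1.40) was the 533rd highest, at percentile 99.0 of the 4312 genes of like level. Slc3a2 (ENSMUSG00000010095, chromosome 19 from 8706882 to 8723369) encodes CD98, the heavy chain that brings xCT, LAT1 and several other light chains to the plasma membrane. Its reads numbered 15903 in control and 27058 in senescent cells (log2 ratio 0.996, interval 0.97 to 1.02), the most of the 9 genes in the senescent library. All 3 genes were thus higher in the senescent library, with the increase smallest for the abundant heavy chain and largest for the scarce xCT.

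The ratio of 2 genes within a library does not depend on scaling. Each Slc7a11 read came with 62.1 Slc3a2 reads in control and 31.0 in senescent cells, so the level of Slc7a11 relative to Slc3a2 was 2.01-fold higher (95% exact conditional interval 1.74 to 2.32). For Slc7a5 relative to Slc3a2 the fold was 1.24 (1.15 to 1.33), and for Slc7a11 relative to Slc7a5 it was 1.62 (1.39 to 1.90). Levels were compared between genes as TPM, a transcript abundance normalised for length and depth, computed here from the counts and the length of merged exons. The level of Slc3a2 was 508 TPM in control and 971 in senescent cells, and the summed level of 5 light chains that pair with it (Slc7a5, Slc7a6, Slc7a7, Slc7a8 and Slc7a11) was 113 and 198 TPM. Within that sum Slc7a5 went from 31.9% to 42.9% and Slc7a11 from 1.84% to 4.01%, while Slc7a6 took 47.8% and 48.1%. Slc7a7, the y+LAT1 light chain of cationic amino acid exchange, went from 18.4% to 4.997%.

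The sodium-coupled glutamine carriers differed from each other. Slc1a5, which encodes ASCT2 (ENSMUSG00000001918, chromosome 7 from 16781340 to 16798274), had 1345 control reads against 780 in senescent cells. These are 46.3 and 31.4 CPM, with a log2 ratio of -0.56. The interval of Slc1a5, -0.69 to -0.43, includes the threshold of -0.5. Slc38a2, which encodes SNAT2, the carrier of system A that is induced when amino acids run short (ENSMUSG00000022462, chromosome 15 from 96687392 to 96699730), had 6586 and 7090 reads (log2 ratio 0.34, interval 0.29 to 0.38). It was thus slightly higher and inside the threshold. Relative to Slc38a2, Slc1a5 was 1.86-fold lower (1.69 to 2.04).

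Glul, the gene of glutamine synthetase (ENSMUSG00000026473, chromosome 1 from 153899944 to 153909723), was the most decreased of the abundant genes among the 9. Its 15651 control reads stood against 4886 in senescent cells, which are 538 and 197 CPM. The log2 ratio was -1.45 (-1.497 to -1.40), a 2.73-fold lower level, and only 1.59% of the 944 genes of like level had a lower ratio. It missed the threshold of 1.5 with TMM scaling and passed it with total-count scaling, at -1.56. Exons of Glul share 116 bases with Teddm2 on the opposite strand, which had 235 and 69 reads, and the use of strand in counting is not given in the sources used here, so reads of the overlap cannot be assigned. The processed pseudogene Glns-ps1, 96.8% identical over 1126 bases, was counted with 1 and 0 reads.

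Gls2, the liver-type glutaminase of glutamine breakdown (ENSMUSG00000044005, chromosome 10 from 128194457 to 128210004), had 251 control and 61 senescent reads, 8.63 and 2.46 CPM. Its log2 ratio of -1.80 (-2.24 to -1.40) was the 595th lowest of all genes, and 6.04% of the 1888 genes of like level had a lower one. Exons of Gls2 share 97 bases with Spryd4 on the opposite strand, which had 680 and 746 reads. Gls2 and Glul, the genes of opposite reactions, were lower together. The Gls2 to Glul ratio differed by a fold of 0.778 between the libraries, with an interval of 0.577 to 1.04 that includes 1.

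Glud1 encodes glutamate dehydrogenase, which converts glutamate to 2-oxoglutarate. Glud1 (ENSMUSG00000021794, chromosome 14 from 34310727 to 34345265) had a log2 ratio of -0.29 (-0.32 to -0.26), from 18769 reads in control and 13115 in senescent cells. It was lower by less than the threshold. The pseudogene Glud-ps, 97.6% identical to Glud1 over 656 bases, was not analysed here. Relative to Glud1, Glul was 2.24-fold lower (2.15 to 2.33). Got1, the cytosolic aspartate aminotransferase of the malate-aspartate shuttle (ENSMUSG00000025190, chromosome 19 from 43499752 to 43524605), had 2795 and 3100 reads (log2 ratio 0.38, interval 0.30 to 0.45). Got2, the mitochondrial aminotransferase, had 5655 and 4107 reads (-0.23, interval -0.29 to -0.17). The pair thus went in opposite directions inside the threshold, and Got1 relative to Got2 was 1.53-fold higher (1.43 to 1.63).

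**Figure D2:**
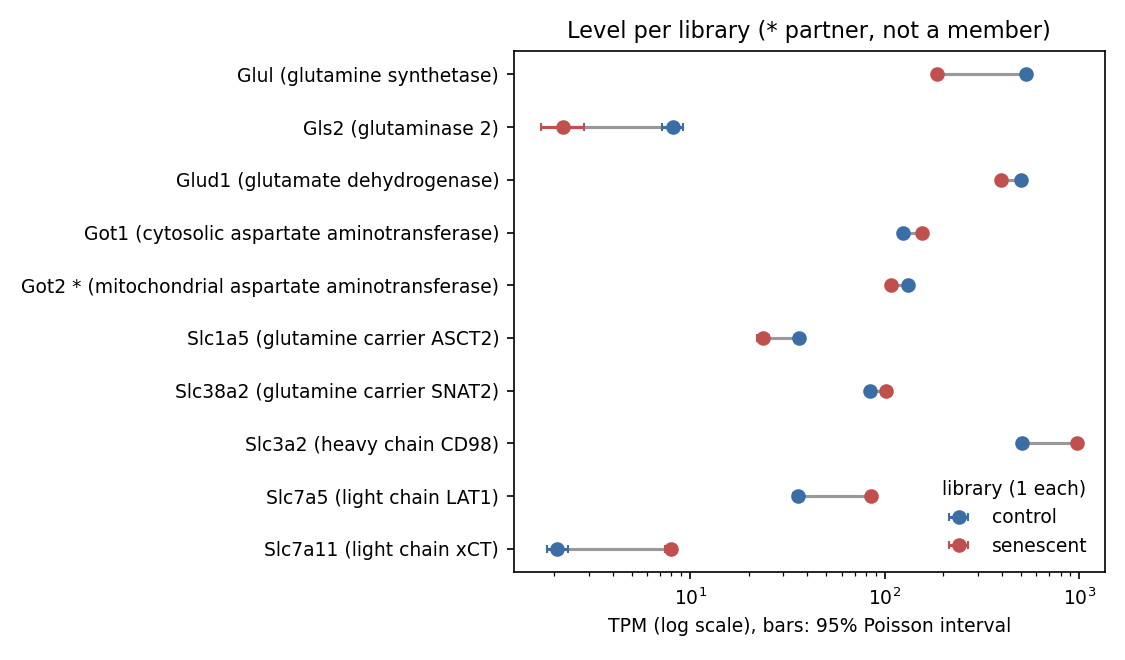
Level of each gene in the control (blue) and the senescent (red) library on a log axis of TPM, with 95% Poisson intervals as bars and Got2 marked with an asterisk. Glul had the highest level in the control library (531 TPM) and ranked below Slc3a2 and Glud1 in the senescent library (186 TPM), and Slc7a11 and Gls2 exchanged the lowest places.

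In the control library Glul was at 531 TPM (95% Poisson interval 522 to 539), followed by Slc3a2 at 508 and Glud1 at 502, whose intervals overlap. Got1 followed at 124 and Slc38a2 at 84.0. Slc1a5 at 36.3 and Slc7a5 at 35.9 did not differ beyond their intervals. Gls2 at 8.14 and Slc7a11 at 2.07 (1.83 to 2.34) were the lowest. In the senescent library the order was Slc3a2 at 971, Glud1 at 394, Glul at 186, Got1 at 155, Slc38a2 at 102, Slc7a5 at 84.9, Slc1a5 at 23.7, Slc7a11 at 7.95 and Gls2 at 2.22, with no overlap between neighbours. The order depends in part on the gene length used. With the length of the principal transcript in place of merged exons, a choice made after the data were seen, Slc3a2 led also in the control library (653 TPM against 419 for Glul), and Slc38a2 stood above Got1 in both libraries.

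**Figure D3:**
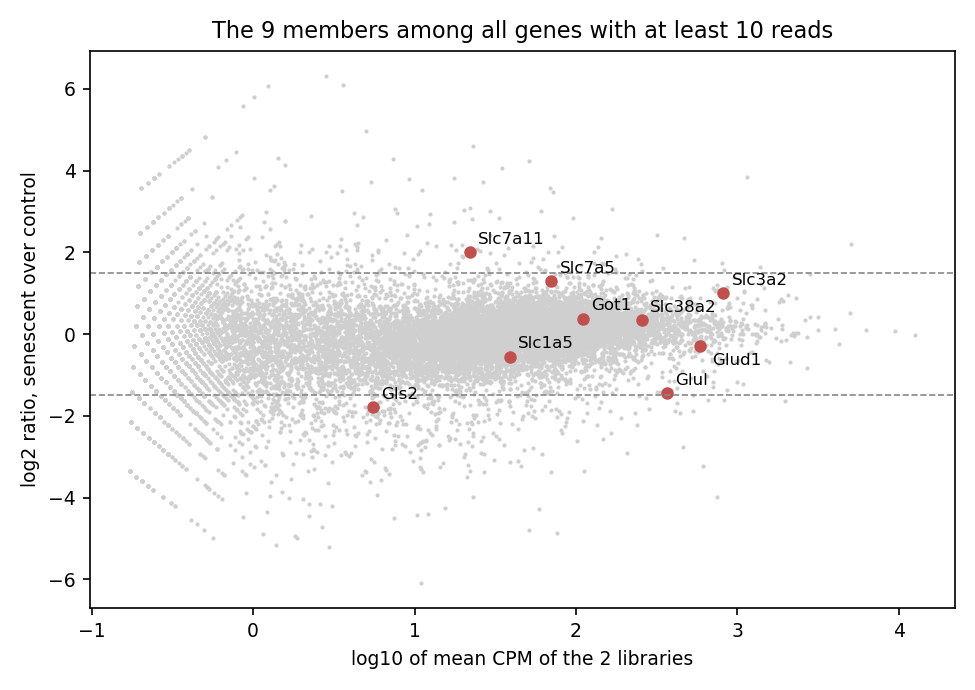
Log2 ratio of senescent over control against the log10 of the mean CPM of the 2 libraries, with the 9 genes in red among all 14383 genes with at least 10 reads in grey and dashed lines at 1.5 in each direction. Slc7a11 and Slc7a5 lie toward the upper edge and Glul toward the lower edge of genes of like level, and at the left the fitted ratio of genes with few reads depends on the prior count.

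The wider pathway was read from lists of other genes. The enzyme list held 31 other enzymes of glutamine and glutamate metabolism and of steps linked to it, so not each acts on glutamine or glutamate itself. Of these, 25 had at least 10 reads. Past 0.5, 8 were higher, 6 lower and 11 neither, beside the 14.8% higher and 20.4% lower of all genes. Their median log2 ratio was 0.06, and -0.05 with total-count scaling. Higher were Aldh18a1 (1923 and 4291 reads, 1.39), the first enzyme from glutamate to proline, and Asns (2536 and 5077 reads, 1.23), asparagine synthetase, which uses glutamine as its nitrogen donor. Gclc, the catalytic subunit of glutamate-cysteine ligase, had 27309 and 42273 reads (0.86), while its modifier subunit Gclm had 5485 and 3450 (-0.44). Pfas, a glutamine amidotransferase of purine synthesis, had a log2 ratio of 0.79. The only enzyme past 1.5 was Cps1, the mitochondrial carbamoyl phosphate synthetase, with 19 and 55 reads (1.71, interval 0.99 to 2.60). Lower were Oat, ornithine aminotransferase (5593 and 2324 reads, -1.04), Nit2, omega-amidase (-0.89), Aldh5a1, succinate semialdehyde dehydrogenase (-0.88), and Ctps2, a CTP synthetase (-0.87).

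The transporter list held 27 other transporters of glutamine, glutamate and cystine and members related to such carriers. Some, such as Slc43a2, are not carriers of glutamine, glutamate or cystine themselves. In this list 14 genes had at least 10 reads, of which 4 were higher past 0.5 and 6 lower, against 14.8% and 20.4% of all genes. The median log2 ratio was -0.36. Slc1a4, which encodes the neutral amino acid carrier ASCT1 and is a paralog of Slc1a5, had 427 control and 1212 senescent reads (1.73, interval 1.57 to 1.90). Slc17a8, a vesicular glutamate transporter, had 33 and 100 reads (1.80), Slc7a6 had 2185 and 3436 (0.88), and Slc25a22, a mitochondrial glutamate carrier, had 1105 and 1399 (0.57). Slc43a2, the LAT4 carrier, had 2609 and 540 reads (-2.04, interval -2.18 to -1.91). Slc3a1, the other heavy chain of the family, had 1484 and 409 reads (-1.63, interval -1.79 to -1.47), the opposite direction from Slc3a2. Slc7a7 had 611 and 259 reads (-1.01), and Slc1a2, the glutamate carrier of perivenous hepatocytes, had 124 and 54 (-0.96).

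Several of the 9 genes are known targets of 3 stress regulators, and other targets of each were read beside them. ATF4 drives Slc7a11, Slc7a5, Slc3a2 and Slc38a2 when amino acids are scarce. Atf4 itself had 4820 control and 10151 senescent reads (log2 ratio 1.30, interval 1.25 to 1.35). Of 30 genes in the list of ATF4 and its other targets, 19 were higher past 0.5, 1 lower and 10 neither, beside 14.8% higher and 20.4% lower of all genes. The median log2 ratio was 0.87, and 4 of its genes, Asns, Aldh18a1, Psat1 and Pycr1, are also in the enzyme list. Mthfd2, of mitochondrial one-carbon metabolism, had 893 and 3333 reads (2.13, interval 2.02 to 2.24), Chac1, which degrades glutathione, had 251 and 883 (2.04), and Slc7a1, a cationic amino acid carrier, had 1744 and 4942 (1.73). The gene lower past 0.5 was Ddit4, an inhibitor of mTORC1, with 11394 and 2096 reads (-2.21).

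NRF2 is a further regulator of Slc7a11. Its gene, Nfe2l2, had 5407 and 3940 reads (log2 ratio -0.23, interval -0.29 to -0.17). Of 19 genes in the list of NRF2 and its other targets, 10 were higher past 0.5 and 0 lower, where all genes had 14.8% and 20.4%. Their median log2 ratio was 0.51. The list has Gclc and Gclm in common with the enzymes. Txnrd1, thioredoxin reductase, had 4905 and 10421 reads (1.32), Osgin1 had 2348 and 4079 (1.03), and Hmox1, heme oxygenase, had 950 and 1417 (0.81).

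Gls2 is a known target of p53. Trp53 had 5364 and 5494 reads (log2 ratio 0.26, interval 0.21 to 0.32). Of 19 genes in the list of p53 and its other targets, 8 were higher past 0.5 and 3 lower, and the shares over all genes were 14.8% and 20.4%, so the lower count is near the background. Their median log2 ratio was 0.39. Mdm2, the ubiquitin ligase of p53 (1.53), Zmat3 (1.18), Tnfrsf10b, a death receptor (1.13), and Eda2r (0.95) had the largest increases. Fas, a death receptor (-1.35), Sesn1, a sestrin (-0.97), and Btg2 (-0.57) were lower.

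Glul is a target of beta-catenin in perivenous hepatocytes. Ctnnb1, the gene of beta-catenin, had 50660 and 50807 reads (0.23, interval 0.22 to 0.25). Of 14 other perivenous genes in the table, 9 had at least 10 reads, of which 4 were lower past 0.5 and 2 higher, next to 20.4% lower and 14.8% higher of all genes. Their median log2 ratio was -0.79, which is the ratio of Cyp1a2 with 17 and 8 reads (interval -2.28 to 0.43). With a prior count of 5 the median was -0.60. The lower genes were Axin2, a feedback target of beta-catenin, with 39 and 10 reads (-1.65, interval -2.90 to -0.71), Lect2 with 447 and 198 (-0.94), and Oat and Slc1a2, given above. The higher genes were Tcf7, with 108 and 161 reads (0.80), and Cyp2e1, a cytochrome P450, with 0 and 50 reads, at least 19.5-fold higher against a floor of 3 reads per library. The other 3 were called neither: Cyp1a2, Rnf43 with 958 and 648 reads (-0.33) and Znrf3 with 897 and 576 (-0.41).

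**Figure D4:**
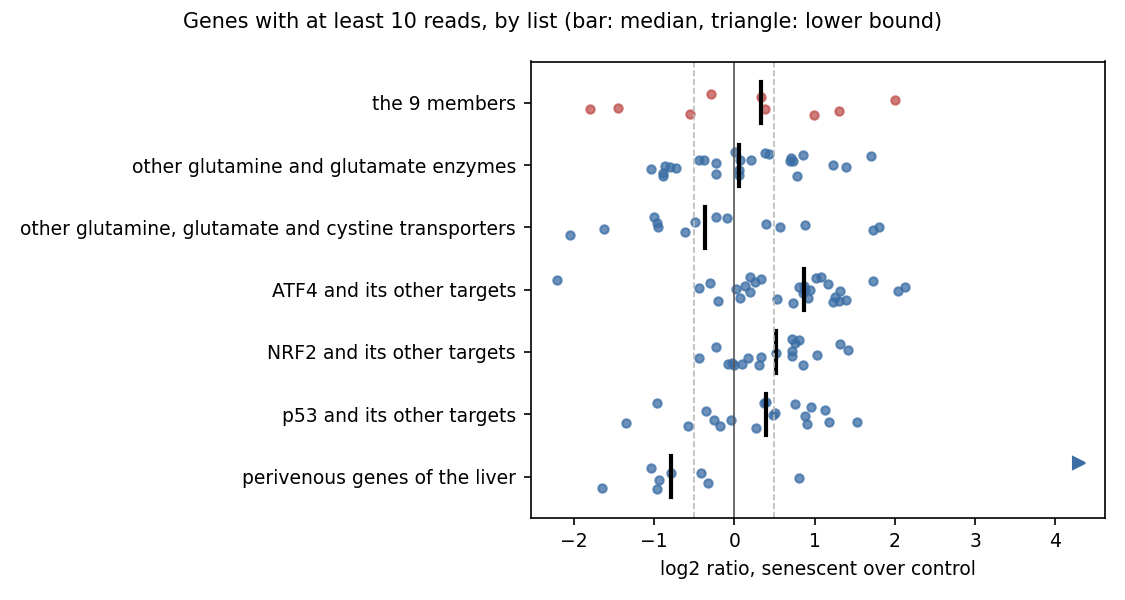
Log2 ratio of senescent over control for each gene with at least 10 reads, as 1 point per gene, in the 9 genes (red) and in 6 lists of related genes (blue), with the median of each list as a black bar and dashed lines at 0.5 in each direction. The medians run from -0.79 for perivenous genes to 0.87 for ATF4 and its other targets, and the triangle is Cyp2e1 at its lower bound, since its control library had 0 reads.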

How the data were processed

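The authors deposited un-normalized read counts per Ensembl gene for 1 control and 1 senescent library. The submitters' processing notes list CASAVA, STAR, DESeq2, edgeR and mm10, with no roles. The counting tool, annotation and use of strand are not given in the sources used here. The columns were assigned by the initials of the sample titles, Young for control and Old for senescent. Symbols, positions and exon lengths came from GENCODE M21 (GRCm38, the assembly of mm10), and promoter sequences from RefSeq on GRCm38.p6.

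Counts were scaled with TMM (edgeR 4.0.16, R 4.3.3), with factors of 1.04 for control and 0.964 for senescent. Before taking logs, a prior count that averaged 1 read per library was added to each gene, in proportion to library size. Intervals are 95% Clopper-Pearson bounds for log2 ratios, from each gene's share of reads in the senescent library, exact conditional bounds of the odds ratio for pairs and exact Poisson bounds for TPM. All cover counting error only, since each condition has 1 library. Amplified reads carried no molecular identifiers and are not independent, so the bounds may be too narrow even for counting error. With 1 library in each condition, the spread between cultures could not be estimated, so no test was run and no p-value is given. A gene at 3 or fewer reads in a library is given a bound. Shared sequence was found with blastn 2.17.0 at 90% identity over at least 200 bases. Computation used Python 3.11.15, pandas 2.3.3, numpy 2.4.6, scipy 1.17.1 and matplotlib 3.10.9. The ratios and intervals were tested on simulated counts that held counting error only, so the test does not cover spread between cultures.

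The 9 genes and the gene lists were chosen with earlier results of these data known. The rule named the 9 genes, Got2, Atf4, Nfe2l2, Trp53 and Ctnnb1, of each list up to 4 genes per direction with the largest log2 ratio past 0.5 and a mean of at least 50 scaled reads, and genes at the floor in 1 library with at least 30 reads in the other, and an item that it covers is not reported here. Every cell type marker given by symbol was named after its values were seen. So were the genes Slc7a8, Psat1, Pycr1, Gclm, Cps1, Axin2, Cyp1a2, Rnf43 and Znrf3 and the overlapping or similar genes.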

Additional observations from a re-analysis of the deposited data

How the results depend on the processing

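The alternatives were total-count, DESeq2 (1.42.0) and upper-quartile scaling, at least 1 or 100 reads, a prior count below 1 or of 5, and wider intervals that assume a coefficient of variation between cultures of 0.2 or 0.4. All 9 genes kept their direction under the other scalings and prior counts, while the read minimum and the wider intervals leave a ratio as it is. Total-count scaling moved the median of all genes by -0.11 (log2), and it gave -0.39 for Glud1, -1.56 for Glul, 0.27 for Got1, 0.23 for Slc38a2, 0.89 for Slc3a2 and 1.20 for Slc7a5. It thereby made 2 genes lower past 1.5 in place of 1. It also gave 2 lower genes in place of 1 in the ATF4 list and 1 in place of 0 in the NRF2 list. Upper-quartile scaling gave -0.33 for Glud1 and 0.96 for Slc3a2. At a coefficient of variation of 0.2 the intervals of Slc1a5 (-1.37 to 0.25), Glud1, Got1 and Slc38a2 included 0, so 2 genes were lower past 0.5 in place of 3. At 0.4 those of Glul (-3.05 to 0.15), Slc7a5 (-0.30 to 2.90) and Slc3a2 (-0.60 to 2.60) did too, and the calls left were 1 higher, Slc7a11, and 1 lower, Gls2. At this setting the other enzymes had 0 higher and 0 lower in place of 8 and 6 (4 and 4 at a coefficient of 0.2), the other transporters 2 and 2 in place of 4 and 6, the ATF4 list 3 higher in place of 19, the NRF2 list 0 in place of 10 (4 at a coefficient of 0.2), the p53 list 0 and 0 in place of 8 and 3, and the perivenous list 1 and 0 in place of 2 and 4. Among all genes, 243 were higher and 571 lower past 0.5 at a coefficient of 0.4, and 917 and 1637 at 0.2, in place of 2135 and 2933. Past 1.5, the 390 higher genes became 141 and the 805 lower genes 395 with at least 100 reads, the higher genes 259 with a prior count of 5, and 243 at a coefficient of 0.4. The ratios between paired genes stayed within their intervals with either prior count. Gls2, with 61 senescent reads, has the widest interval of the 9 genes. No paired analysis was possible because each condition has 1 library, and leaving out a replicate was not possible for the same reason.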
